A study of Homo sapiens with 4 samples.

Results

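Transcripts of the BCL2 family, the caspases and the inhibitors of apoptosis were followed in THP1 cells in which MLL-AF9 had been silenced. The set holds 47 genes, chosen by name for their role in cell death, and 46 of them were measured among 17938 genes with a symbol. HRK, a BH3-only protein, was the exception, since its 1 probe had a deposited weight of 0 and was not well above background on any array.

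THP1 is a human acute myeloid leukemia cell line of the M5 (monocytic) type, and its endogenous MLL-AF9 fusion transcript was targeted at the breakpoint, with either siRNA-A or siRNA-B. The sample labels call these siRNA3 and siRNA4, and the series' design text gives siRNA3 as A and siRNA4 as B. Non-targeting siRNAs, named control siRNA-1 and -2, served as controls. All cells were transfected on days 0, 3 and 6, were moved to a low-serum medium on day 6, and were harvested on day 8. Each single-colour array held RNA pooled from 5 experiments, which gave 2 knockdown and 2 control arrays from a single cell line. The arrays of a group thus differ in siRNA, and the spread within a group includes the difference between siRNAs. Each array had its own position on the slide, so position and treatment cannot be told apart.

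Apoptosis through mitochondria is set by the balance within the BCL2 family. Anti-apoptotic members such as BCL2 and MCL1 hold back BAX and BAK1, BH3-only proteins release that brake, and open mitochondria let out cytochrome c, which assembles with APAF1 to activate caspase-9. Death receptors reach the same effector caspases through FADD and caspase-8, and XIAP and related proteins inhibit caspases directly. Acute myeloid leukemia cells are known to lean on BCL2 and MCL1 for survival.

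The state of the knockdown and of the cells was checked first. The brightest probe for MLLT3, the AF9 gene, was at log2 6.82 with siRNA-A and 6.87 with siRNA-B, against 7.59 and 7.61 in the controls, but it cannot separate fusion from wild-type transcript. HOXA9, a known target of MLL fusions, was at 11.14 and 11.48 against 11.86 and 11.89. Both genes were lower in both knockdown arrays. Of the monocytic and myeloid markers 7 of 9 were measured and all 7 were well above background on every array. Their log2 fold changes were 1.05 for CD14, the only one under an unadjusted p of 0.005 in limma, 0.19 for CSF1R, 0.05 for ITGAM, -0.03 for SPI1, -0.11 for CD33, -0.15 for CD68 and -0.22 for MPO. The B-cell marker CD79A and all 3 T-cell markers were also above background, the latter at log2 5.54 to 6.32 in controls, as were all 3 erythroid markers. MS4A1 and the epithelial marker CDH1 were above background on 1 array each, and KRT19 on the control arrays only. The part of these markers in the results was not tested. Between 70.0% and 74.3% of spots were well above background per array, and the probes of all 46 members were so on every array, none saturated.

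The probes that matter most for reading the results are shown here as printed on the arrays, 5′ to 3′, because CASP6 had the smallest p of all members and because the probes of BCL2A1 gave different values. In the scanner tables' hg19 positions the CASP6 probe lies at chr4:110610645-110610704 on the minus strand. The brightest BCL2A1 probe is listed at chr15:80253220-80253252, which covers only 33 of its 60 bases, and the other at chr15:80263136-80263195, both on the minus strand. Whether they lie in coding exons was not analysed here.
CASP6: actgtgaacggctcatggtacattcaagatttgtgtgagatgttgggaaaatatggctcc
BCL2A1, brightest probe: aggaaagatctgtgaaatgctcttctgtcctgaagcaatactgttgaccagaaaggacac
BCL2A1, other probe: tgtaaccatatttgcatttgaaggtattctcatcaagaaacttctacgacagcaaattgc

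None of the 46 measured members was called differentially expressed after MLL-AF9 knockdown. With limma on the deposited log2 intensities 0 of 46 passed an unadjusted p under 0.005, where 1.33% of all genes did, 0.63% higher and 0.702% lower. After Benjamini-Hochberg adjustment over all probes in limma the smallest adjusted p of a member was 0.609, and 0.123% of all genes had an adjusted p under 0.05. At an unadjusted p under 0.05 only CASP6 was left, 1 of 46 or 2.17%, against 8% of all genes, 3.26% higher and 4.74% lower. In bulk RNA, fewer cells of a kind and less RNA per cell cannot be told apart.

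The absence of a call leaves a range of possible changes, which the intervals give. Log2 fold changes of members ran from -0.28 (CASP6) to 0.16 (PMAIP1), with standard errors of 0.108 to 0.156 (n = 2 arrays per group), and 82.6% of all genes lay in the same span. The 95% intervals of limma stayed within 1 log2 unit of 0 in 46 of 46 members and within 0.5 in 40 of 46, the lowest bound being -0.56 and the highest 0.46. A change in intensity by a factor of 2 therefore lay outside the interval of every measured member. The intensities carry no background correction, and the intervals cover only the spread between pooled samples. They therefore do not bound the change in transcript level. An exact permutation test of 2 against 2 arrays cannot give a p below 0.333.

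**Figure D1:**
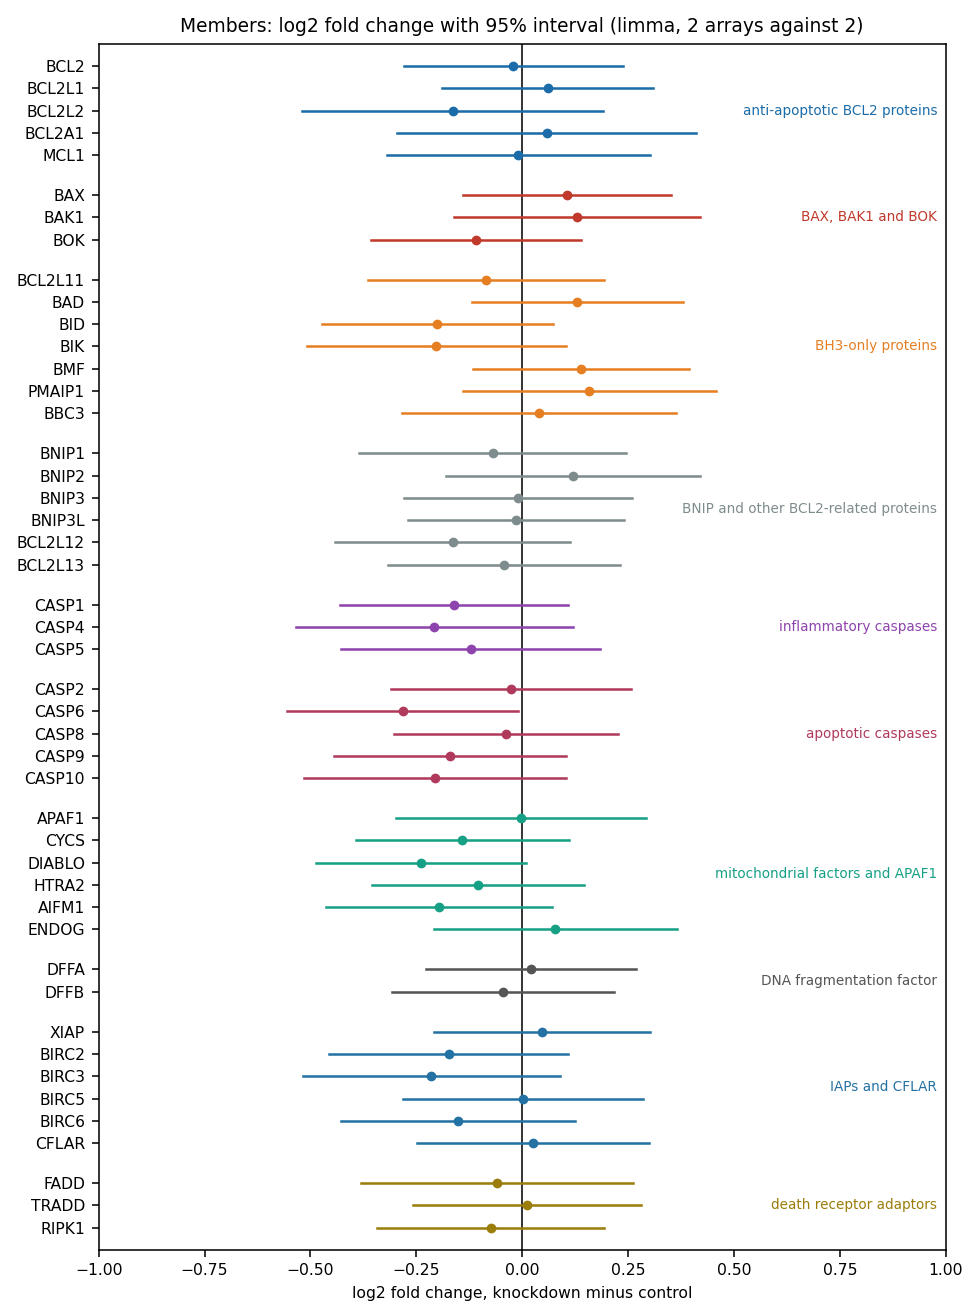
Log2 fold change of each measured member, knockdown minus control (x axis), with its 95% interval from limma as a line and colours for the class. The intervals of 45 of 46 members include 0, and that of CASP6 alone does not.

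None of the anti-apoptotic BCL2 proteins passed the test, and the signs of BCL2 and MCL1 turned after quantile normalization, that of BCL2A1 with the background-subtracted signal without scaling. BCL2, the founding survival protein of the family, was at log2 11.34 with siRNA-A and 11.46 with siRNA-B, against 11.39 and 11.45 with control siRNA-1 and -2. The groups overlapped, with a log2 fold change of -0.02 (SE 0.11, limma adjusted p 0.987). The second BCL2 probe was at 0.05. MCL1, a short-lived survival protein, was at 11.16 and 11.48 against 11.27 and 11.40. Its knockdown arrays lay on either side of both controls, and the log2 fold change was -0.0096 (SE 0.14, limma adjusted p 0.994).

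BCL2L1, which encodes BCL-XL, was at 7.59 and 7.66 against 7.55 and 7.58. Both knockdown arrays were above both controls, but the log2 fold change of 0.06 was smaller than its standard error of 0.11 (limma adjusted p 0.933). BCL2L2, which encodes BCL-W, had a log2 fold change of -0.16 (SE 0.16), with the siRNA-A array inside the control range. Of the 5 anti-apoptotic BCL2 proteins 2 had a log2 fold change above 0 and 3 below.

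BCL2A1, an NF-kB responsive survival protein, differed most between its probes. The brightest probe was at 12.01 with siRNA-A and 12.44 with siRNA-B, against 12.08 and 12.26, a log2 fold change of 0.058 (SE 0.15, limma adjusted p 0.963). The groups of this probe overlapped. The other probe was at 7.71 and 8.43 against 7.62 and 7.61, a log2 fold change of 0.45 (SE 0.20, unadjusted p 0.0538 in limma's fit). Both knockdown arrays were above both controls there, mostly through siRNA-B. Without the siRNA-B array this value was 0.096, and without the siRNA-A array it was 0.81 and passed the unadjusted threshold.

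**Figure D2:**
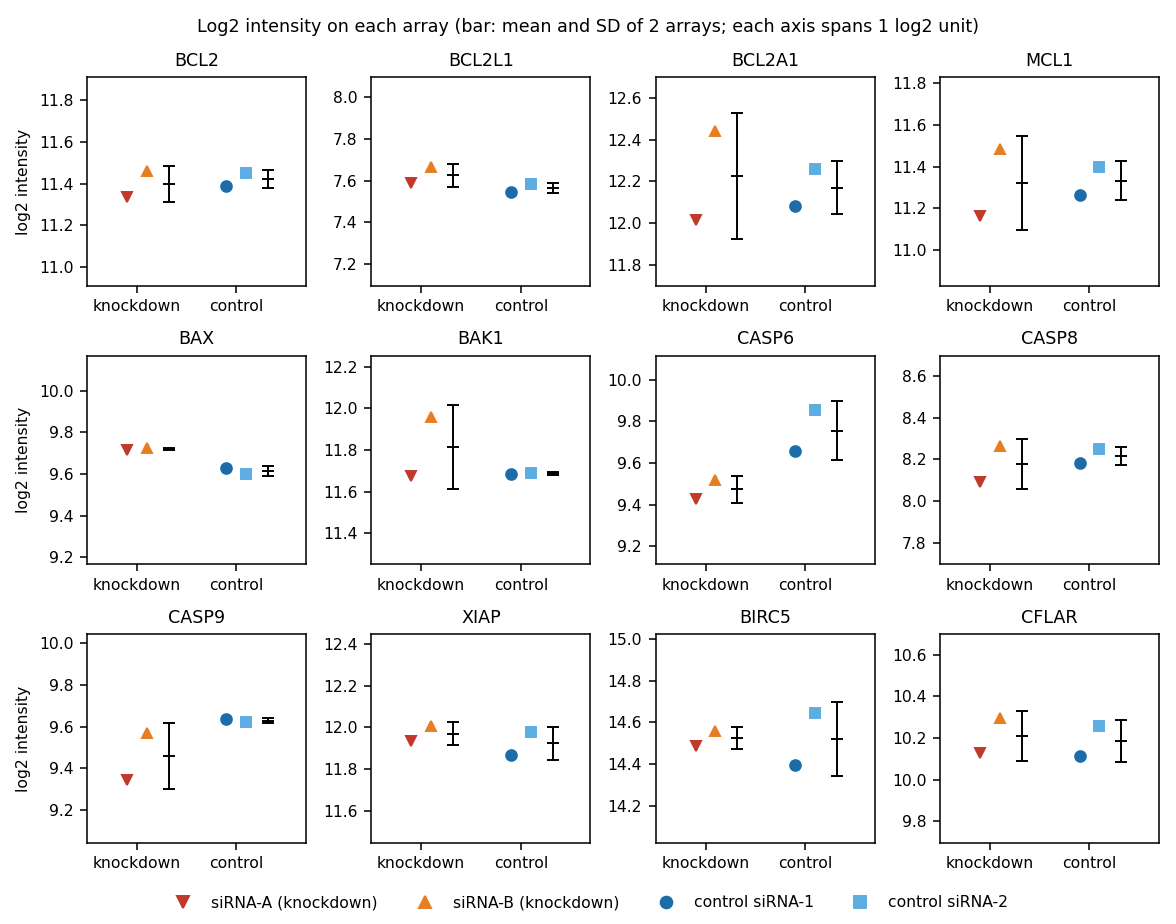
Log2 intensity (y axis) on each array for 12 members, with the mean and SD of the 2 arrays of each group beside the points. CASP6 and BAX are among the panels whose groups do not overlap, while BCL2, MCL1, BIRC5 and CFLAR overlap.

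BAX and BAK1, which permeabilize the mitochondrial outer membrane, had log2 fold changes just above 0. BAX was at 9.72 with both siRNAs against 9.63 and 9.60, each value a mean of 10 identical spots. Both knockdown arrays were above both controls, and the log2 fold change was above 0 in 10 of 10 spots (0.0055 to 0.18), but at 0.11 (SE 0.11, limma adjusted p 0.863) it did not pass the test. The spots are copies of a single probe read from the same pooled RNA, so they do not count as replicates. The second BAX probe had a log2 fold change of -0.03. BAK1 was at 11.67 and 11.96 against 11.68 and 11.69, a log2 fold change of 0.13 (SE 0.13, limma adjusted p 0.859). Only siRNA-B was above the controls. BOK, a related pore-forming protein, was below both controls in both arrays, with a log2 fold change of -0.11 (SE 0.11).

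The BH3-only proteins, which sense stress and neutralize the survival proteins, went in both directions. Of 7 measured, 4 had a log2 fold change above 0, namely PMAIP1 (NOXA, 0.16), BMF (0.14), BAD (0.13) and BBC3 (PUMA, 0.04). The remaining 3 were below 0, namely BIK (-0.20), BID (-0.20), which links caspase-8 to mitochondria, and BCL2L11 (BIM, -0.09). Both knockdown arrays were above both controls for BMF and BAD and below them for BID, and the smallest unadjusted p of the class was 0.129 in limma. PMAIP1 was at 11.66 with siRNA-A and 11.82 with siRNA-B, against 11.45 and 11.71, so siRNA-A lay between the controls. BIK was at -0.36 with siRNA-A and -0.04 with siRNA-B against the control mean, and its groups overlapped. BID was at 13.73 and 13.94 against 14.00 and 14.07. It was lower mainly with siRNA-A, and its second probe was at -0.11. BAD was at 10.66 and 10.71 against 10.52 and 10.59, and its second probe had a log2 fold change of 0.24. Both BAD probes thus had the same sign. The 3 probes of BCL2L11 gave log2 fold changes of -0.09, 0.07 and -0.19, so even its direction depended on the probe.

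The BNIP and other BCL2-related proteins were assigned to neither side. BNIP3 and BNIP3L, which act in mitophagy, had log2 fold changes of -0.0099 and -0.01, and BNIP1 and BNIP2 of -0.07 and 0.12. The other BNIP3L probes were at 0.08 and 0.15, and the second BNIP2 probe was at -0.08. BCL2L13 was at -0.04, and BCL2L12 was at -0.16 with both knockdown arrays below both controls. None of the 6 passed the test, and BNIP3 and BNIP3L were above 0 after quantile normalization, at 0.03 and 0.06.

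**Figure D3:**
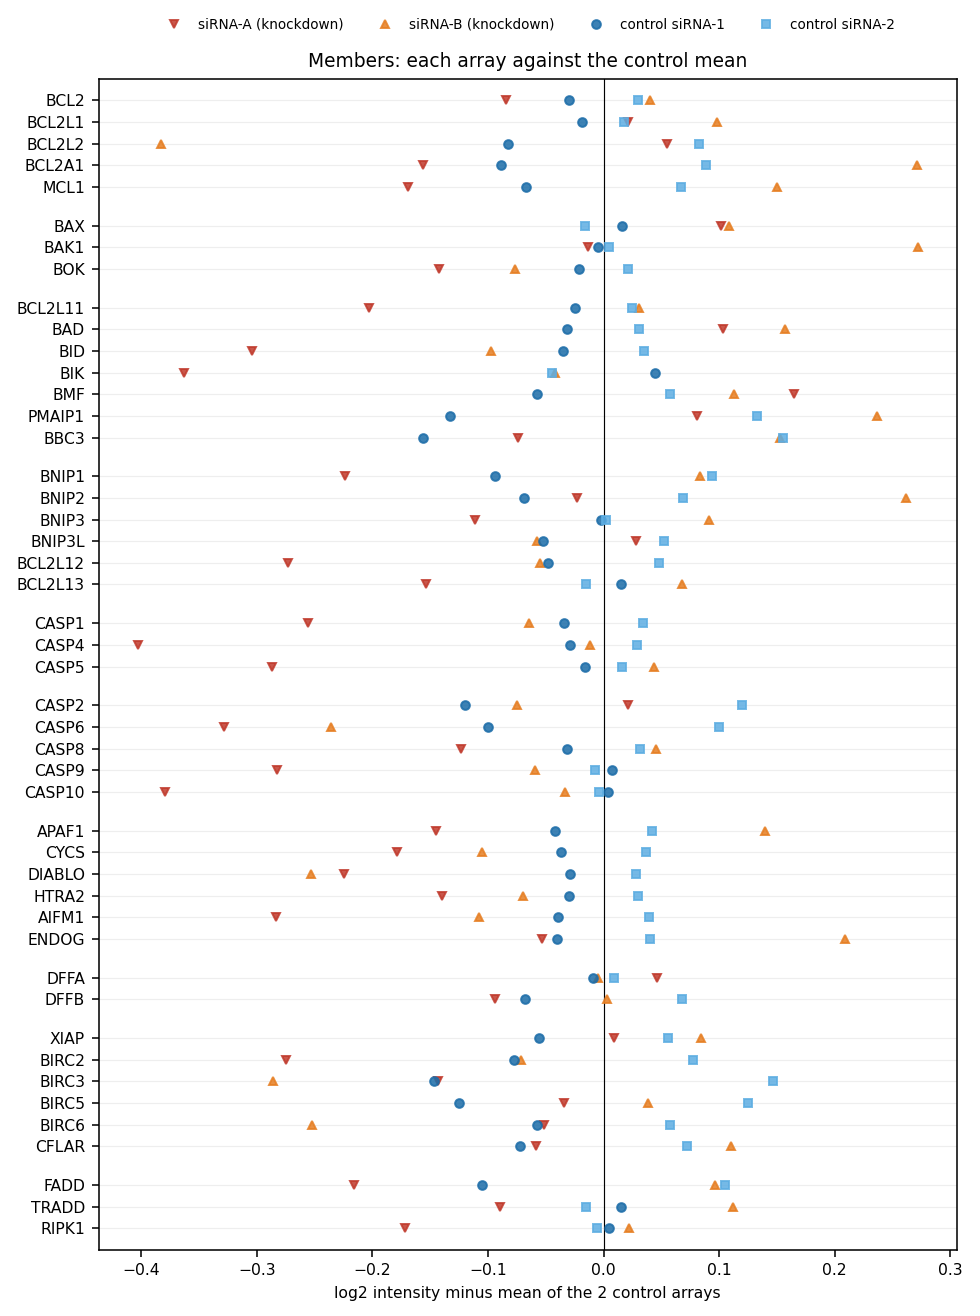
Log2 intensity of each member on each array minus the mean of the 2 control arrays (x axis). The siRNA-A array (downward triangles) is the lowest of the 4 in 29 of 46 members, and the siRNA-B array (upward triangles) is often on the other side of the controls.

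All 8 caspases in the set had log2 fold changes below 0 on the deposited scale, without passing the test, and CASP2 and CASP8 were just above 0 under some of the other normalizations and background corrections. CASP6, an executioner caspase, was at 9.43 with siRNA-A and 9.52 with siRNA-B, against 9.66 and 9.85. Both knockdown arrays were below both controls. The log2 fold change was -0.28 (SE 0.12, unadjusted p 0.0442 and adjusted p 0.609 in limma), and over 13 alternatives it stayed between -0.38 and -0.18, with an unadjusted p under 0.05 in 8 of them and under 0.005 in 0.

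CASP9, the initiator caspase of the mitochondrial route, was at 9.35 and 9.57 against 9.64 and 9.62. It was below both controls in both arrays, mainly with siRNA-A, and its log2 fold change was -0.17 (SE 0.12, limma adjusted p 0.79). CASP8, the initiator caspase of the death receptors, was at 8.09 and 8.26 against 8.18 and 8.25. Here siRNA-A was below and siRNA-B above both controls, with a log2 fold change of -0.04 (SE 0.12, limma adjusted p 0.967). The second CASP8 probe was at -0.14, with both knockdown arrays below both controls. CASP10, a close relative of CASP8, was at -0.21 and below both controls in both arrays. It was at -0.38 with siRNA-A and -0.03 with siRNA-B against the control mean, and at -0.08 with the scaled background-subtracted signal. Both arrays were also below the controls on its other probes that were above background on all arrays, at -0.10 and -0.06. CASP2 was at -0.03.

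The inflammatory caspases, which process interleukins and gasdermin D, had a median log2 fold change of -0.16 over CASP1 (-0.16), CASP4 (-0.21) and CASP5 (-0.12). Against the control mean their median was -0.29 with siRNA-A and -0.01 with siRNA-B. CASP4 was at 13.55 with siRNA-A and 13.94 with siRNA-B, against 13.92 and 13.98. It was low with siRNA-A alone, and CASP1 was the only one of the 3 below both controls in both arrays.

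Of the mitochondrial factors and APAF1, 5 of 6 had a log2 fold change below 0 and none passed the test, APAF1 being above 0 after other normalizations. DIABLO, which encodes the IAP antagonist SMAC, was at 15.32 with siRNA-A and 15.29 with siRNA-B, against 15.52 and 15.58. Its log2 fold change was -0.24 (SE 0.11, unadjusted p 0.0567 in limma), larger than the difference between the arrays of either group, and its second probe was at -0.11. Under the other normalizations and background corrections the DIABLO value was between -0.16 and -0.13. AIFM1 was at -0.20, CYCS, which encodes cytochrome c, at -0.14 and the protease HTRA2 at -0.10, and each was below both controls in both arrays. With the scaled background-subtracted signal AIFM1 was at -0.09 and CYCS at -0.04, and after quantile normalization at -0.12 and -0.06. Against the control mean AIFM1 was at -0.28 with siRNA-A and -0.11 with siRNA-B. Another CYCS probe was at 0.20, so the direction depended on the probe. APAF1, the scaffold of the apoptosome, was at -0.0029, and ENDOG, a mitochondrial nuclease, at 0.08. DFFA and DFFB, the inhibitor and the nuclease of the DNA fragmentation factor, were at 0.02 and -0.05. The second DFFB probe was at 0.14.

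None of the 6 inhibitors of apoptosis passed the test, and on their brightest probes the groups overlapped in all 6, where 36.2% of all genes had groups that did not overlap. XIAP, a direct caspase inhibitor, was at 11.93 with siRNA-A and 12.01 with siRNA-B, against 11.87 and 11.98, a log2 fold change of 0.05 (SE 0.11, limma adjusted p 0.955). The second XIAP probe was at 7.69 and 7.55 against 7.75 and 7.77, below both controls in both arrays, with a log2 fold change of -0.14 (SE 0.11). BIRC5 (survivin), which also acts in mitosis, was at 14.49 and 14.56 against 14.40 and 14.65, a log2 fold change of 0.0021 (SE 0.12, limma adjusted p 1.000). CFLAR (c-FLIP), which blocks caspase-8, was at 10.13 and 10.29 against 10.11 and 10.26, a log2 fold change of 0.03 (SE 0.12, limma adjusted p 0.983). The second CFLAR probe was at -0.10, with groups that overlapped. On the brightest probes of these 3 genes the sign turned with the background-subtracted signal without scaling, and that of CFLAR also with scaling. The ubiquitin ligases BIRC2, BIRC3 and BIRC6 were at -0.17, -0.21 and -0.15. BIRC3 was at 7.73 with siRNA-A and 7.59 with siRNA-B, against 7.73 and 8.03, a spread between the controls larger than the group difference. The death receptor adaptors FADD, TRADD and RIPK1 were at -0.06, 0.01 and -0.07.

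Summed by side, anti-apoptotic members had a median log2 fold change of -0.0096 (11 genes) and pro-apoptotic members of -0.05 (24 genes), beside -0.02 over all genes, and after quantile normalization these medians were 0.018, -0.0087 and 0.0041. The pro-apoptotic median was 0.017 without the siRNA-A array and -0.14 without the siRNA-B array. The 24 pro-apoptotic genes join several classes. BAX, BAK1 and BOK had a median of 0.11 and the BH3-only proteins of 0.04. The apoptotic caspases (CASP2, CASP6, CASP8, CASP9 and CASP10) were at -0.17 and the mitochondrial factors with APAF1 at -0.12. DFFB, FADD and TRADD made up the rest. A log2 fold change above 0 was found in 5 of 11 anti-apoptotic, 8 of 24 pro-apoptotic and 2 of 11 other members, 32.6% in all, beside 43.8% of all genes. Groups did not overlap in 15 of 46 members, again 32.6%, where 36.2% of all genes did so, 15% above and 21.2% below the controls. These were 1 of 11 anti-apoptotic and 12 of 24 pro-apoptotic members, 3 above and 9 below.

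**Figure D4:**
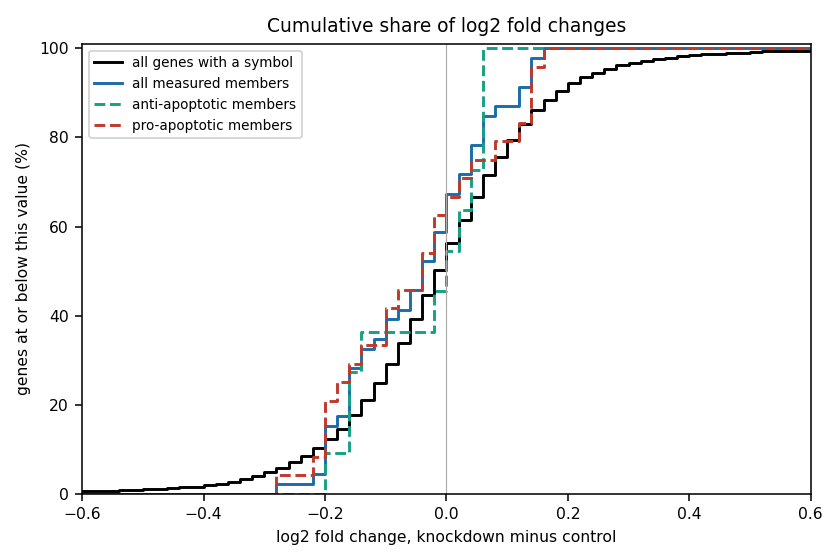
Share of genes (y axis, percent) at or below each log2 fold change (x axis) for all genes with a symbol, all measured members and both sides. The members span -0.28 to 0.16, while 5.75% of all genes lie below and 11.6% above that span.

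The knockdown arrays differed from each other more than the control arrays did. In median, members differed by 0.197 log2 units between siRNA-B and siRNA-A and by 0.079 between the controls, where all genes differed by 0.142 and 0.109. After quantile normalization the difference between siRNA-B and siRNA-A was 0.118 in members and 0.126 in all genes, so that members no longer exceeded all genes. The siRNA-A array was the lowest of the 4 in 29 of 46 members, or 63%, beside 39.6% of all genes, and after quantile normalization in 22, or 47.8%, beside 28.7%. Against the control mean the median of the members was -0.14 with siRNA-A and 0.03 with siRNA-B, where that of all genes was -0.05 and 0.01. The group difference exceeded the spread within both groups in 9 of 46 members, 19.6% beside 23.9% of all genes, namely BAX, BMF, BAD, BOK, CASP6, CYCS, DIABLO, HTRA2 and AIFM1. After quantile normalization it did so in 16 of 46, 34.8% beside 27.9%. These array-wise summaries were chosen after the first values were seen.

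Of 19 members with several probes, all probes had the same sign in 9 and different signs in 10. Leaving out the single probe not above background on every array, one of CASP10, these were 10 and 9. None of the 25 further probes had an unadjusted p under 0.05 in limma.

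**Figure D5:**
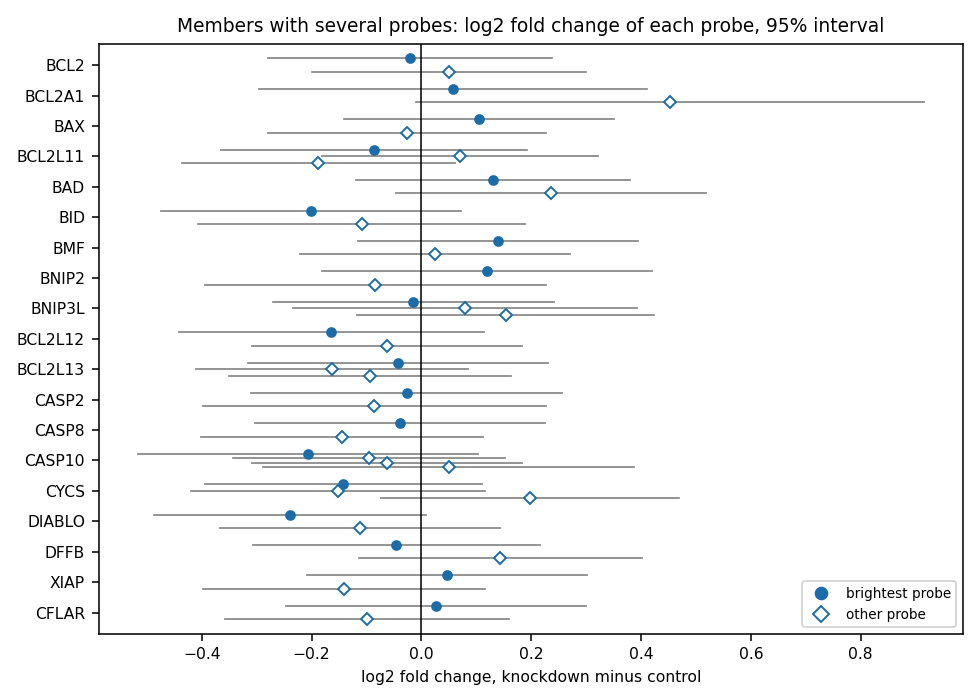
Log2 fold change (x axis) of every probe of the 19 members with several probes, with 95% intervals from limma. Filled circles are the brightest probes and open diamonds the others, and the other BCL2A1 probe, at 0.45, is the farthest from 0.

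Other genes of cell death pathways, 66 measured, gave 1 called gene, or 1.52%, beside 1.33% of all genes. This was NAIP, an inhibitor of apoptosis that also senses bacterial ligands, at 10.43 with siRNA-A and 10.70 with siRNA-B, against 10.02 and 9.93. Both knockdown arrays were above both controls. NAIP rose by the unadjusted criterion with a log2 fold change of 0.59 (SE 0.13, unadjusted p 0.00137 and adjusted p 0.229 in limma), and its second probe was at 0.44. NAIP has near-identical copies in the genome, so the source of its signal is uncertain. On single spots 9 of the 10 NAIP spots passed both criteria of the study's methods. These spots are copies of a single probe on the same arrays and do not count as replicates. The second criterion covers only the spread between such copies. The call was lost with the background-subtracted signal, scaled (0.64) or unscaled (0.61), and when any of 3 arrays was left out, namely siRNA-B (0.46), the first control (0.64) or the second (0.54).

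At an unadjusted p under 0.05 there were 4 of these 66 genes, 6.06% beside 8% of all genes. SESN2, a stress-responsive p53 target (0.31), and NLRP3, an inflammasome sensor (0.32), joined NAIP above 0. CRADD, an adaptor of caspase-2, was at -0.43 (SE 0.12, unadjusted p 0.00539 in limma), and passed the threshold of 0.005 under 5 alternatives. Death receptors and their ligands (12 genes), effector caspases and substrates (10) and necroptosis genes (4) held none, while p53 and its targets held 1 of 15, the inflammasome 1 of 9, and other survival and channel proteins 2 of 16.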

How the data were processed

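Gene expression was measured on 4 single-colour Agilent 4x44K arrays. The authors extracted spots with Agilent Feature Extraction 10.5.1.1, per the submitters' processing notes, and deposited an intensity per spot, equal to the median pixel signal in 100% of spots, with neither background correction nor normalization. The deposited score per spot is a quality weight, and how it was set is not stated in the sources used here. Of 43118 non-control spots, 33323 with a weight above 0 on all arrays were kept, identical spots were averaged to 26219 probes, and a weighted linear model (limma 3.58.1, R 4.3.3) compared log2 intensities, knockdown minus control. Genes were called at an unadjusted p under 0.005, the first of the study's 2 criteria. The other, a p under 0.05 over identical spots, was applied as an alternative on single spots. A probe with a single spot, as for most members, passed this second criterion by default. Benjamini-Hochberg adjustment was over all probes, and all p are two-sided. A gene was given by its brightest probe under the array's own symbol. The fit was tested on simulated data.

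Members, pathway lists and markers were chosen with earlier results of these data known. Values per array were given for members with an unadjusted p under 0.05 and for 11 central members, and also for PMAIP1, BID, BAD, CASP4, DIABLO and BIRC3, which were chosen after their values were seen. Alternatives were other normalizations and background corrections, no weights, a filter on dim probes, a variance trend, the mean of a gene's probes, other thresholds and the omission of each array. The number of arrays limits the precision, and p measure the spread between pooled samples. Protein sequences were not used here, and 1 marker is not reported here.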

Additional observations from a re-analysis of the deposited data

How the results depend on the processing

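By its brightest probe, or the mean of its probes, no member was called by limma under any of 13 alternatives, with an adjusted p under 0.05, or by the methods' 2 criteria on single spots, and the smallest such unadjusted p under any alternative was 0.0184. At an unadjusted p under 0.05 there was 1 member in the reported fit, and 11 had such a p under at least 1 alternative. The sign was the same under all alternatives in 21 members (16 below 0, 5 above 0) and changed under at least 1 in 25, in 73 of 598 values, none of them called. Without the alternatives that leave out an array 33 kept their sign. The cause was not tested. With the background-subtracted signal scaled to its 75th percentile log2 fold changes of opposite sign were MCL1 0.039, CASP8 0.0038, APAF1 0.045 and CFLAR -0.016. With that signal unscaled log2 fold changes of opposite sign were BCL2A1 -0.018, MCL1 0.0083, APAF1 0.014, XIAP -0.023, BIRC5 -0.015, CFLAR -0.046 and TRADD -0.023. After quantile normalization log2 fold changes of opposite sign were BCL2 0.0033, MCL1 0.018, BNIP3 0.027, BNIP3L 0.059, CASP2 0.00081 and APAF1 0.026. After cyclic loess normalization log2 fold changes of opposite sign were BCL2 0.013, MCL1 0.024, BNIP3 0.023, BNIP3L 0.053, CASP2 0.0037 and APAF1 0.026. After normexp (offset 50) with quantile normalization log2 fold changes of opposite sign were BCL2 0.0074, MCL1 0.010, BNIP3 0.030, BNIP3L 0.049, CASP2 0.021, CASP8 0.00035 and DFFB 0.00012. With the mean of all probes log2 fold changes of opposite sign were BCL2 0.015, BNIP3L 0.073, DFFB 0.049, XIAP -0.047 and CFLAR -0.036. Leaving out each array in turn gave ranges of BCL2L2 -0.38 to 0.055, BCL2A1 -0.16 to 0.27, BAK1 -0.014 to 0.27, BBC3 -0.12 to 0.20, BNIP2 -0.023 to 0.26, BNIP3L -0.067 to 0.038, CASP2 -0.15 to 0.093, ENDOG -0.053 to 0.21 and BIRC5 -0.12 to 0.13. Further ranges were CFLAR -0.058 to 0.11, TRADD -0.090 to 0.11, BCL2 -0.085 to 0.040, MCL1 -0.17 to 0.15, BCL2L11 -0.20 to 0.031, BNIP1 -0.22 to 0.084, BNIP3 -0.11 to 0.091, BCL2L13 -0.15 to 0.068 and CASP5 -0.29 to 0.044. Further ranges were CASP8 -0.12 to 0.046, APAF1 -0.15 to 0.14, DFFA -0.0050 to 0.046, DFFB -0.11 to 0.023, FADD -0.22 to 0.096, RIPK1 -0.17 to 0.022 and XIAP -0.0091 to 0.10. Groups did not overlap in 21 members after quantile or loess normalization (45.7%, beside 41.1% and 41.6% of all genes) and in 20 after normexp (43.5% beside 41.8%), against 15. With 3 arrays, where by construction fewer values must separate, the count was 35 without siRNA-B (76.1% beside 71.5%), 36 without siRNA-A (78.3% beside 70.3%), 27 without control siRNA-1 (58.7% beside 66.1%) and 24 without control siRNA-2 (52.2% beside 61.6%). The pro-apoptotic median was -0.14 without siRNA-B and 0.017 without siRNA-A, and the anti-apoptotic median ran from -0.077 to 0.058. Of the pathway genes 0 were called with the background-subtracted signal, scaled or unscaled (0.842% and 1.01% of all genes), and 2 after quantile, loess or normexp processing, with the filter on dim probes and with the mean of all probes (3.03% or 3.08%, beside 1.19% to 1.7% of all genes). With an array left out 0 to 1 were called, beside 0.284% to 0.942% of all genes. No paired analysis was possible because the experiments were pooled on each array, and the numbers in the sample labels name siRNAs. The fits on 3 arrays take the spread of the single remaining array from the other group.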
